A study of Mus musculus with 16 samples.

Results

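Phosphatidylcholine synthesis and remodelling was followed through 10 genes, taken by symbol from a list of enzymes: Chka, Chkb, Etnk1, Pcyt1a, Pcyt2, Chpt1, Cept1, Ptdss2, Lpcat3 and Lpcat1. They are 10 of the 17410 genes in the expression tables, and all 10 were listed in all 16 livers and tested in every comparison. The RNA came from whole mouse liver in 2 diet experiments that removed or added ChREBPα, 1 form of the glucose-sensing transcription factor that Mlxipl encodes.

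The first experiment used Chrebpα-flox/flox mice. Chrebpα-WT animals (4 livers, numbered 17 to 20) received AAV-TBG-GFP, and Chrebpα-LKO animals (4 livers, 21 to 24) received AAV-TBG-Cre, with Cre under TBG, a promoter active in hepatocytes. Both groups ate the NASH diet for 12 weeks, with 40% of energy from fat, 20% from fructose, and 2% cholesterol. The second experiment used wildtype mice, 2 months old, on the HFLMCD diet, which holds no choline, 45% of energy as fat and 0.1% added methionine. Their livers are labelled as 3 weeks on the diet, and adenovirus carrying GFP (Ad-GFP, 4 livers, 9 to 12) or Chrebpα (Ad-Chrebpα, 4 livers, 13 to 16) was given 1 week before dissection. Age is not stated for the NASH experiment, and the labels do not say that each liver came from a separate animal, so p-values reflect only how these samples spread, which may be technical.

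Phosphatidylcholine is the main phospholipid of liver membranes, of the surface of very low density lipoproteins and of bile. In the Kennedy pathway a kinase phosphorylates choline, a CTP-dependent transferase turns phosphocholine into CDP-choline, and a phosphotransferase joins it to diacylglycerol; ethanolamine takes a parallel route to phosphatidylethanolamine, which liver can methylate to phosphatidylcholine. In the Lands cycle, acyltransferases then put new fatty acids onto lysophosphatidylcholine.

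Total expected counts per library ranged from 21254937 to 40327264. Listed hepatocyte markers were present in every liver, with summed FPKM (fragments scaled to transcript length and library total) between 39644 and 63810. Mlxipl itself lay at 50.1 to 80.4 FPKM in Chrebpα-WT and 47.5 to 100.1 in Chrebpα-LKO livers, and at 38.95 to 48.5 in Ad-GFP and 44.7 to 47.8 in Ad-Chrebpα livers. These ranges overlap within each experiment, and the gene total does not separate isoforms, so it does not check the labels. In whole liver, fewer cells of a type and less RNA per cell cannot be told apart.

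The levels of the 10 genes spanned a wide range. Pcyt2, which makes CDP-ethanolamine for the parallel branch, had the highest mean in all 4 groups: 120.3 ± 21.1 FPKM (SD, n = 4) in Chrebpα-WT, 162.1 ± 30.2 in Chrebpα-LKO, 159.3 ± 3.77 in Ad-GFP and 153.8 ± 2.12 in Ad-Chrebpα livers. Chpt1, the choline phosphotransferase, was second in both NASH groups, where its range overlapped that of Pcyt2, and followed Lpcat3 in both HFLMCD groups. Lpcat3, the main liver acyltransferase that adds polyunsaturated chains to lysophosphatidylcholine, was next after Chpt1 under NASH. Pcyt1a (which makes CDP-choline and is the regulated step), Etnk1 (an ethanolamine kinase), Chkb (choline kinase β) and Cept1 (which uses both CDP-choline and CDP-ethanolamine) formed a middle group at 15.2 to 28.4 FPKM on average. In Chrebpα-WT livers these 4 did not differ beyond their spread, with neighbours in the order overlapping from 19.01 FPKM for Pcyt1a to 17.6 for Cept1. Chka (choline kinase α) and Ptdss2, which exchanges the head group of phosphatidylethanolamine for serine, lay lower at 4.19 to 7.71 FPKM and overlapped in every group. Lpcat1, an acyltransferase that prefers saturated chains and is best known from lung surfactant, was lowest throughout, with means of 0.528 to 2.73 FPKM.

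For 8 of the 10 genes, all but Lpcat1 and Ptdss2, both HFLMCD groups varied less between livers than both NASH groups. This was not particular to these genes. Over all genes, edgeR's biological coefficient of variation was 0.126 for the HFLMCD groups and 0.221 for the NASH groups. The share of all genes with the same split was not counted. The coefficient of variation of Pcyt2 over 4 livers was 2.36% in Ad-GFP and 1.38% in Ad-Chrebpα, against 17.5% in Chrebpα-WT and 18.6% in Chrebpα-LKO. Etnk1 showed the same split, with 2.94% in Ad-Chrebpα against 20.7% in Chrebpα-LKO. Lpcat1 was the most variable of the 10 in all 4 groups, from 23.2% in Ad-Chrebpα to 42.2% in Chrebpα-WT.

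**Figure D1:**
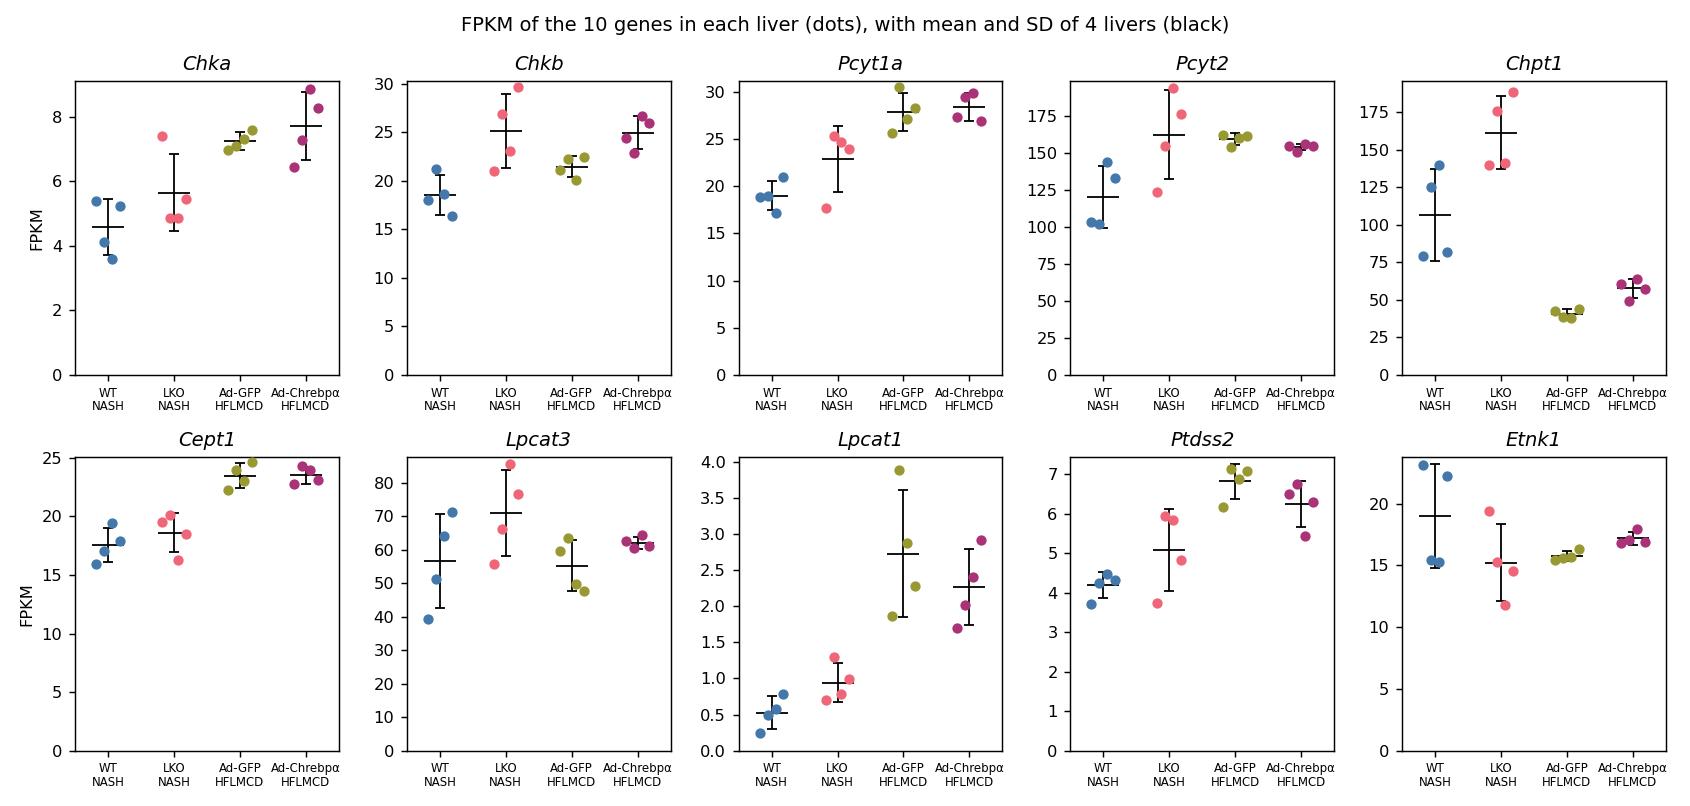
FPKM of each of the 10 genes (vertical axes, each from 0) in the 4 groups, 1 dot per liver, with the mean and SD of 4 livers in black. Chpt1 sits highest in the NASH groups and Lpcat1 in the HFLMCD groups, and the Pcyt2 dots are tightest under HFLMCD.

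Livers given adenoviral ChREBPα were compared with Ad-GFP livers on the HFLMCD diet, although the Mlxipl total did not show the added factor. Chpt1, Chkb and Etnk1 rose, and 0 of the 10 genes fell. Across all genes, edgeR's quasi-likelihood test at an adjusted p below 0.05 called 666 of 13658 higher (4.88%) and 431 lower (3.16%), so 3 of 10 higher stands beside a background of 4.88%. No member was lower at an unadjusted p below 0.05 either, and DESeq2 called the same 3 higher and 0 lower. The median log2 fold change was 0.13 over the 10 genes and -0.01 over all genes tested.

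Chpt1, which carries out the last step to phosphatidylcholine, stood at 42.7, 38.6, 38.1 and 43.9 FPKM in the Ad-GFP livers and at 60.4, 49.3, 63.6 and 57.0 in the Ad-Chrebpα livers. All 4 treated livers lay above all 4 controls. Its log2 fold change was 0.53 (SE 0.09, 95% interval 0.33 to 0.72, 1.44-fold, adjusted p = 0.0088).

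Chkb, which like Chka phosphorylates choline, had 21.1, 22.3, 20.1 and 22.4 FPKM with Ad-GFP and 24.4, 22.8, 26.7 and 25.9 with Ad-Chrebpα. The groups did not overlap, though the lowest treated liver lay only slightly above the highest control. The log2 fold change was 0.29 (SE 0.06, 1.22-fold, adjusted p = 0.0236). Gm44502 and C730034F03Rik overlap Chkb and had no values under these symbols. Cpt1b, its downstream neighbour, was at 2.22 ± 0.536 FPKM in Ad-GFP and 2.56 ± 0.342 in Ad-Chrebpα livers (n = 4 each).

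Etnk1 read 15.5, 15.6, 15.7 and 16.3 FPKM in the Ad-GFP livers and 16.9, 17.1, 17.9 and 16.9 in the Ad-Chrebpα livers. The difference was small but so was the spread, and the groups did not overlap. Its log2 fold change was 0.20 (SE 0.05, 1.15-fold, adjusted p = 0.0359).

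The letters upstream of these 3 genes are shown because they are the members called higher in the Ad-Chrebpα livers. ChREBPα is a factor that binds paired E-box-like elements, and its binding at these genes was not tested. Each run is the 250 bases before the RefSeq transcript start, on the gene's own strand, in build GRCm38.p6: chr10:88503971-88504220 (minus strand) for Chpt1, chr15:89429928-89430177 (minus strand) for Chkb and chr6:143166980-143167229 (plus strand) for Etnk1. Capitals mark GC boxes (GGGCGG, here as CCGCCC) and CCAAT boxes (CCAAT or ATTGG), each searched on both strands.
Chpt1: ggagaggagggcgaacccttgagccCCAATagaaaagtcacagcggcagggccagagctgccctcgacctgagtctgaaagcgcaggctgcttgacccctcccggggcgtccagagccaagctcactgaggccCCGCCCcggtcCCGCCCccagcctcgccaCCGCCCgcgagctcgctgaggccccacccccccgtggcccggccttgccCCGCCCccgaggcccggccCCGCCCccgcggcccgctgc
Chkb: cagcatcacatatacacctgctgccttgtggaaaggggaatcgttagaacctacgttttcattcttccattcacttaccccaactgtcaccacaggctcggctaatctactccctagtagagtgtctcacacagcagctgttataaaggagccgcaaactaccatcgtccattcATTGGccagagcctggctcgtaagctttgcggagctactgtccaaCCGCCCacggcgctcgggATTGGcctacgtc
Etnk1: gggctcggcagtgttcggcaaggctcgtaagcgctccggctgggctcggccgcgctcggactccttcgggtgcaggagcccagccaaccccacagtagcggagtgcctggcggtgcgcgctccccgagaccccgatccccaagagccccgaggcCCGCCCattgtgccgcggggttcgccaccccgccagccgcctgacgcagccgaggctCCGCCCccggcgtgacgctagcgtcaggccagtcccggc
Chpt1 holds 5 GC boxes, between 117 and 15 bases before the start, and 1 CCAAT box. Chkb holds 1 GC box and 2 CCAAT boxes, and Etnk1 holds 2 GC boxes and no CCAAT box. Members not called here held them too: GC boxes lay upstream of Lpcat3, Lpcat1, Cept1, Pcyt1a and Chka but not of Ptdss2. CCAAT boxes lay upstream of Lpcat3 and Chka but not of the other members with a window that were not called. GC boxes occurred in 32.7% and CCAAT in 33.8% of the 32851 mouse promoter windows of this length. The perfect E-box CACGTG, found in 6.02% of windows, was in none of the 13 windows found for 9 of the 10 genes (all but Pcyt2). A sterol response element of the form TCACNCCAC, present in 1.05% of windows, was found among them only upstream of Pcyt1a, as TCACCCCAC at bases -116 to -108 of its first listed start; Pcyt1a was not called in any comparison on counts. These matches describe letters in a short window only.

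The other 7 genes did not pass. Lpcat3 came nearest, at 59.7, 63.6, 49.9 and 47.7 FPKM with Ad-GFP and 62.6, 60.5, 64.3 and 61.0 with Ad-Chrebpα. The FPKM ranges overlapped through liver 10, the highest control, while on the TMM scale (CPM) the ranges, 117.4 to 149.8 and 154.4 to 165.3, did not overlap. Its log2 fold change was 0.24 (SE 0.08, unadjusted p = 0.0143, adjusted p = 0.0967). For Chka the value was 0.16 (SE 0.09, 95% interval -0.04 to 0.37), for Pcyt1a 0.10 (SE 0.05, -0.02 to 0.22) and for Cept1 0.08 (SE 0.05, -0.03 to 0.18). Pcyt2, the most abundant, had 0.02 (SE 0.05), with an interval of -0.10 to 0.14. Ptdss2 and Lpcat1 had -0.05 (SE 0.09, -0.25 to 0.15) and -0.20 (SE 0.23, -0.70 to 0.31).

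The 3 calls were not equally firm. Chpt1 passed without each liver in turn (8 of 8, adjusted p = 0.0023 to 0.0308) and was lost when all 16 libraries shared 1 fit (log2 fold change 0.54, adjusted p = 0.109). Chkb was lost without liver 9, 11, 13, 15 or 16, on log2(FPKM + 0.1) and in the joint fit, and Etnk1 in the same 2 fits, with no count filter and without any 1 liver other than 14 (adjusted p up to 0.0765 and 0.0877 in these leave-one-out fits). Of all genes called, 60.7% were higher on counts but 30.1% on log2(FPKM + 0.1), where the median of all genes moved by -0.07, and Chpt1 was the only member called there. Cholangiocyte markers moved in the same comparison: 3 of 5 were lower (Krt19, Epcam and Sox9), beside 3.16% of all genes. These 3 had group means of only 0.89 to 3.14 FPKM. Summed FPKM of all 5 was 117.5 to 283.6 in Ad-GFP and 93.4 to 140.01 in Ad-Chrebpα livers, with no marker at 0. Spp1 made up most of these sums (means of 180.8 and 104.5 FPKM) and was not called (adjusted p = 0.107). Of 6 hepatocyte markers 1 was higher, Apoa1 (0.33, adjusted p = 0.0384), and of 8 macrophage markers 1, Itgax (0.40, adjusted p = 0.0424). The part of these markers in the 3 increases was not tested.

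**Figure D2:**
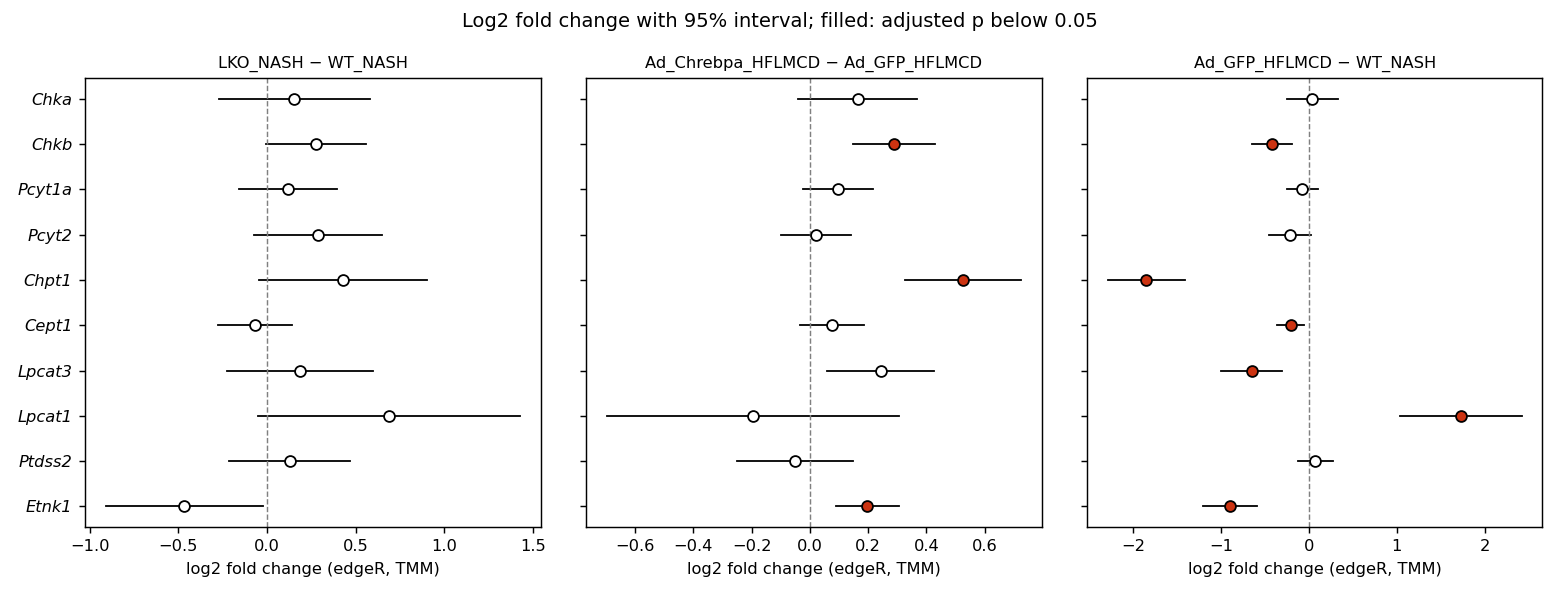
Log2 fold change of each gene on counts scaled by TMM, with 95% intervals, in the 3 comparisons (horizontal axes differ). Filled points have an adjusted p below 0.05: 0 genes for the deletion, 3 for the overexpression, and 6 between the control livers.

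Deletion of ChREBPα in hepatocytes on the NASH diet changed none of the 10 genes by this test. edgeR called 0 of 12786 genes (0%) at an adjusted p below 0.05, and limma-voom also 0, while DESeq2 called 90 higher and 68 lower, none of them members. At an unadjusted p below 0.05, 974 genes were higher (7.62%) and 756 lower (5.91%); among the 10 genes 0 were higher and 1, Etnk1, was lower. The log2 fold change was positive for 8 of the 10, with a median of 0.17 against 0.01 over all genes.

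Chpt1 was at 79.3, 125.2, 139.5 and 82.1 FPKM in Chrebpα-WT livers and at 140.0, 176.0, 141.2 and 188.2 in Chrebpα-LKO livers. The highest control lay just below the lowest liver with the deletion, so the FPKM ranges did not overlap, but on TMM-scaled CPM they did, at 163.7 to 286.2 in Chrebpα-WT and 264.7 to 341.8 in Chrebpα-LKO. The log2 fold change of 0.43 (SE 0.21, 95% interval -0.05 to 0.90) did not pass, at an adjusted p = 0.397. The difference between its deletion and overexpression values was not tested.

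Etnk1 had 23.1, 15.4, 15.3 and 22.2 FPKM in Chrebpα-WT and 19.4, 15.3, 11.8 and 14.5 in Chrebpα-LKO livers. Only 2 controls lay above all livers with the deletion. The log2 fold change was -0.47 (SE 0.20, unadjusted p = 0.041, adjusted p = 0.362).

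Chkb read 18.02, 21.2, 18.6 and 16.3 FPKM in the controls and 20.96, 26.9, 23.1 and 29.6 after deletion. Chrebpα-WT liver 18 lay just above the lowest liver of the other group. Its log2 fold change was 0.28 (SE 0.12, 95% interval -0.0034 to 0.56, adjusted p = 0.372). The neighbour Cpt1b was at 0.79 to 1.23 FPKM in Chrebpα-WT and 1.49 to 3.01 in Chrebpα-LKO livers, and its part was not tested.

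Both Pcyt enzymes had positive values with wide intervals: Pcyt2 0.29 (SE 0.16, -0.07 to 0.65) and Pcyt1a 0.12 (SE 0.12, -0.16 to 0.39). Cept1 had -0.07 (SE 0.09, -0.27 to 0.14) on counts and 0.08 on log2(FPKM + 0.1), where the median of all genes moved by 0.14. Chka, Ptdss2 and Lpcat3 had 0.15 (SE 0.19), 0.13 (SE 0.15) and 0.19 (SE 0.18). The widest interval was that of Lpcat1, at 0.69 (SE 0.33, -0.05 to 1.43, adjusted p = 0.388). Macrophage markers were beside it: 8 of 8 had positive values with a median of 0.85, where 51.5% of all genes were positive. Their summed FPKM ran from 39.96 to 86.6 in Chrebpα-WT and from 54.97 to 147.3 in Chrebpα-LKO livers. Positive too were 3 of 3 T and NK cell markers (median 0.98) and 5 of 5 endothelial markers (median 0.29). For stellate cells it was 4 of 5, and for B cells 1 of 1. Fewer were positive for cholangiocytes (2 of 5), neutrophils (1 of 3) and hepatocytes (1 of 6, median -0.47). None of these markers passed the test, and their part in the Lpcat1 value was not tested. No alternative fit called any of the 10 genes. Without liver 21, which was highest for Chka and lowest for Pcyt2 and Lpcat3 in its group, 413 genes passed (159 higher, 254 lower), again with 0 members, and the value of Chka turned to -0.03.

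The control livers of the 2 experiments were also set side by side, Ad-GFP on HFLMCD against Chrebpα-WT on NASH. Diet, weeks of feeding, virus, genotype and possibly age differ together and cannot be told apart, and each control group also serves in a comparison above. Lpcat1 was higher and Chpt1 was lower in the Ad-GFP livers on counts and on both FPKM scales. For the other 8 genes the call or the direction depended on how the libraries were scaled.

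On counts scaled by TMM (edgeR's trimmed mean of M-values), 4150 of 13488 genes were higher (30.8%) and 3793 lower (28.1%). Of the 10 genes, 1 was higher and 5 were lower. The 10 most abundant genes took 14.6% to 15.9% of counts in Ad-GFP and 19.2% to 20.2% in Chrebpα-WT livers, and TMM factors were 1.22 to 1.28 and 0.772 to 0.853. FPKM values were used without such factors. On log2(FPKM + 0.1) the all-gene median was 0.60 above that on counts. On that scale 9882 calls were higher and 743 lower (93.0% of calls higher, against 52.2% on counts), and 7 members were higher and 1 lower. The part of the most abundant genes in this shift was not tested.

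Chpt1 had TMM-scaled values of 78.1, 68.2, 68.9 and 80.8 CPM in Ad-GFP livers and 203.1, 331.6, 337.3 and 192.6 in Chrebpα-WT livers. The groups were far apart. The log2 fold change was -1.85 (SE 0.20, 95% interval -2.29 to -1.41, adjusted p = 4.03e-05), and -1.34 on log2(FPKM + 0.1). This places Chpt1 far below the median of all genes on both scales.

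Lpcat1 had 2.46, 4.85, 3.73 and 2.97 CPM in Ad-GFP and 0.51, 1.04, 1.11 and 1.48 in Chrebpα-WT livers. All Ad-GFP livers lay above all NASH controls. The log2 fold change was 1.73 (SE 0.31, 3.32-fold, adjusted p = 0.00086), and 2.20 on log2(FPKM + 0.1). In the same livers 7 of 8 macrophage markers were higher, with a median log2 fold change of 2.40 and summed FPKM of 359.2 to 633.9 against 39.96 to 86.6. Within Ad-GFP, liver 10 had both the highest marker sum, 633.9, and the highest Lpcat1, 3.89 FPKM. Within Chrebpα-WT, liver 19 had the highest sum, 86.6, and liver 20 the highest Lpcat1, 0.79 FPKM. Markers of T and NK cells (4 of 4), neutrophils (3 of 3) and stellate cells (4 of 5) were higher too, beside 30.8% of all genes. Those of cholangiocytes (2 of 5) and B cells (1 of 3) stood nearer to that share, and 0 of 5 endothelial markers was called. On counts 6 of 6 hepatocyte markers were lower with a median of -1.14, beside 28.1% of all genes. Of these, Ahsg had 0.15 on log2(FPKM + 0.1). None of the listed markers was at 0 in any liver, and their part in these differences was not tested.

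Etnk1, with 79.3 to 86.7 CPM in Ad-GFP and 121.5 to 194.6 in Chrebpα-WT livers, fell by 0.90 on the log2 scale (SE 0.14, adjusted p = 0.00036), and Lpcat3 fell by 0.65 (SE 0.15, adjusted p = 0.0046). On log2(FPKM + 0.1) they were -0.24 (adjusted p = 0.133) and -0.01 and did not pass. Chkb had -0.42 (SE 0.10, adjusted p = 0.0058) and Cept1 -0.21 (SE 0.07, adjusted p = 0.0273) on counts, but 0.22 (adjusted p = 0.0466) and 0.42 (adjusted p = 0.00078) on the FPKM scale. Cept1 was also lost on counts without liver 9, 10, 11 or 19. Pcyt1a and Pcyt2 had -0.07 and -0.21 on counts without passing, and 0.55 and 0.42 on FPKM with adjusted p = 0.00021 and 0.0078. Chka and Ptdss2 had 0.04 (SE 0.13) and 0.08 (SE 0.09) on counts, and 0.66 and 0.69 on FPKM. Relative to the FPKM median of all genes, the values of Chka, Pcyt1a and Ptdss2 were 0.06, -0.05 and 0.08, and those of Chkb, Etnk1 and Lpcat3 were -0.39, -0.85 and -0.61.

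**Figure D3:**
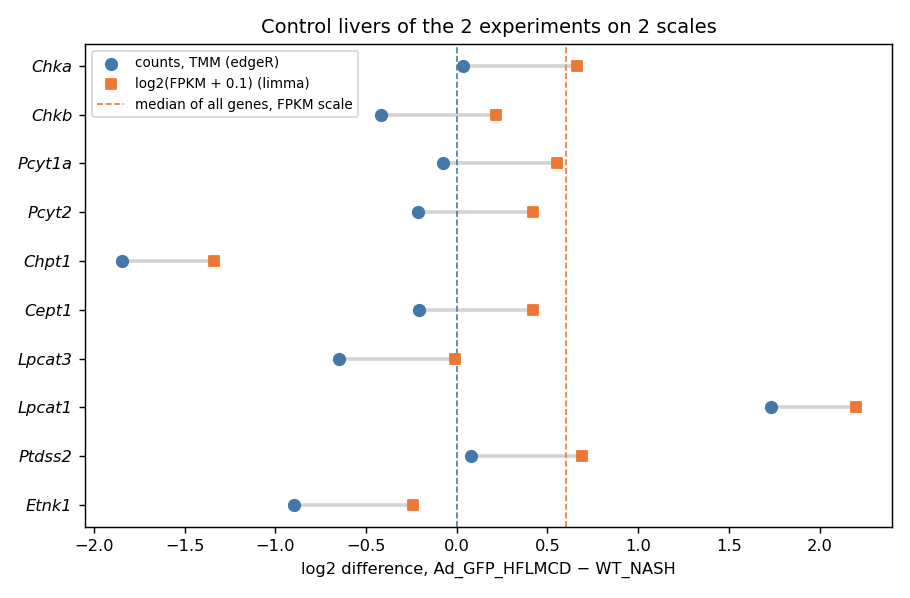
Log2 difference of the 10 genes between the Ad-GFP and Chrebpα-WT livers on TMM-scaled counts (circles) and on log2(FPKM + 0.1) (squares), with dashed lines at 0 and at the all-gene FPKM median of 0.60. Chpt1 lies left and Lpcat1 right of both lines, while Chkb, Pcyt1a, Pcyt2 and Cept1 change sign between scales.

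Ratios within a liver do not depend on library scaling, and pairs of enzymes with related roles were compared this way, as a description. Chpt1 over Cept1, the 2 phosphotransferases, had geometric means of 5.89 in Chrebpα-WT, 8.62 in Chrebpα-LKO, 1.74 in Ad-GFP and 2.44 in Ad-Chrebpα livers. The ranges of Ad-GFP (1.61 to 1.92) and Ad-Chrebpα (2.02 to 2.66) did not overlap, nor did those of Ad-GFP and Chrebpα-WT (4.58 to 7.33); those of Chrebpα-WT and Chrebpα-LKO (7.16 to 10.2) did. Lpcat3 over Lpcat1 was 113.2 and 76.5 in the NASH groups against 20.9 and 28.0 in the HFLMCD groups. The Ad-GFP range, 16.3 to 31.9, lay entirely below the Chrebpα-WT range, 90.1 to 157.8. Chka over Chkb (0.223 to 0.338) and Pcyt1a over Pcyt2 (0.142 to 0.184) had overlapping ranges in all 3 comparisons; for Chka over Chkb the overlap between Ad-GFP (0.319 to 0.364) and Chrebpα-WT (0.194 to 0.320) was slight, and the log2 difference was 0.46.

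**Figure D4:**
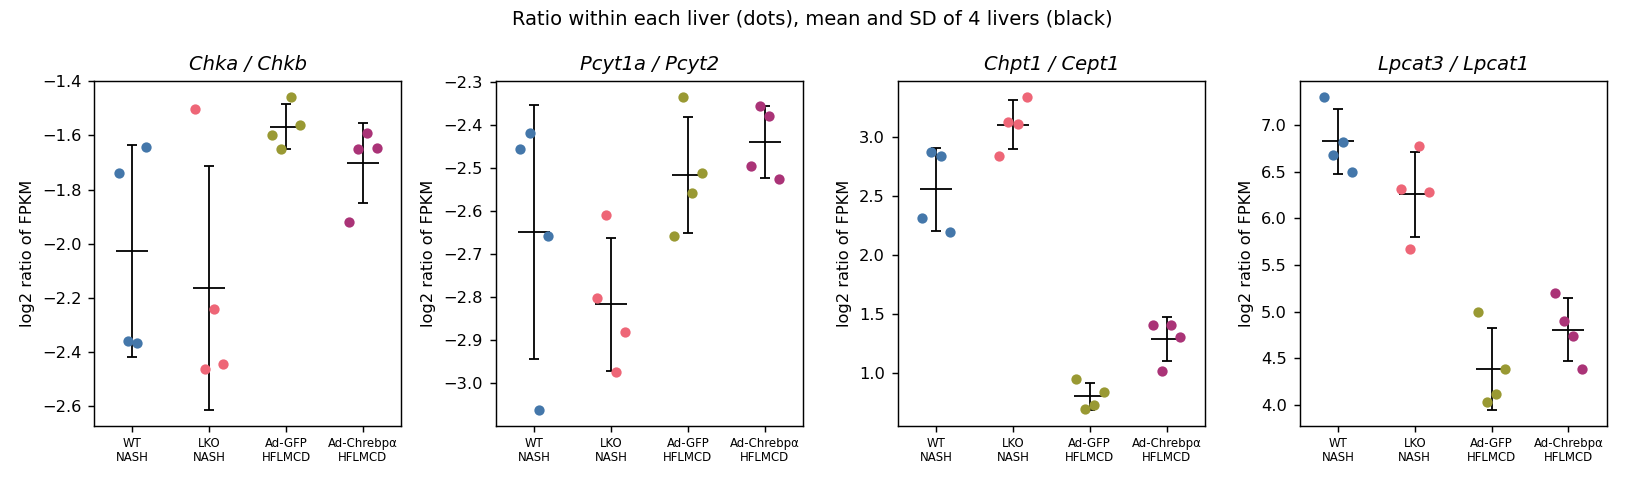
Log2 ratio of FPKM for 4 pairs of enzymes in each liver (dots), with the mean and SD of 4 livers in black. Chpt1/Cept1 and Lpcat3/Lpcat1 are separated between the NASH and HFLMCD control groups, and the Chka/Chkb and Pcyt1a/Pcyt2 ratios overlap.

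The tables also give a transcript length for each gene in each liver; it varied between livers for 3 of the 10 genes, Chka, Pcyt1a and Chpt1, and this measure was chosen after its values had been seen. Chpt1, with 2 transcripts listed, averaged 2240 ± 21.3 bases (n = 4) in Ad-GFP, 2179 ± 13.1 in Ad-Chrebpα, 2001 ± 25.1 in Chrebpα-WT and 1986 ± 53.0 in Chrebpα-LKO livers. The difference, Ad-Chrebpα minus Ad-GFP, was -61.2 bases, with ranges of 2159 to 2187 and 2217 to 2259 that did not overlap. Separate ranges of 4 against 4 livers always give the smallest possible 2-sided exact permutation p, 0.0286. That p therefore adds nothing to the ranges, which were seen first. Of 3005 genes with varying length in that comparison, 5.42% had ranges that did not overlap and 3.39% had as large a ratio. Between the control groups Chpt1 was 238.6 bases longer in Ad-GFP, again with separate ranges and so the same p. There 11.4% of 2891 genes had separate ranges and 0.969% as large a ratio. The deletion groups overlapped (exact permutation p = 0.686), as did all but 3.39% of 2683 genes. Chka differed by at most 10.2 bases and Pcyt1a by at most 2.28 bases between the means of any 2 groups compared, with overlapping ranges. Sycp3 overlaps Chpt1 in the genome and was at 0.98 to 3.33 FPKM in all livers. Emg1 overlaps Lpcat3, with group means of 20.7 to 23.3 FPKM. Dennd2d and Dram2 overlap Cept1, with group means of 1.60 to 3.92 and 21.3 to 36.5 FPKM. Mean Dram2 was above mean Cept1 in every group. The sources do not give whether the counting used strand. The part of these neighbours in the values and ratios of Chpt1, Cept1 and Lpcat3 was not tested.

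**Figure D5:**
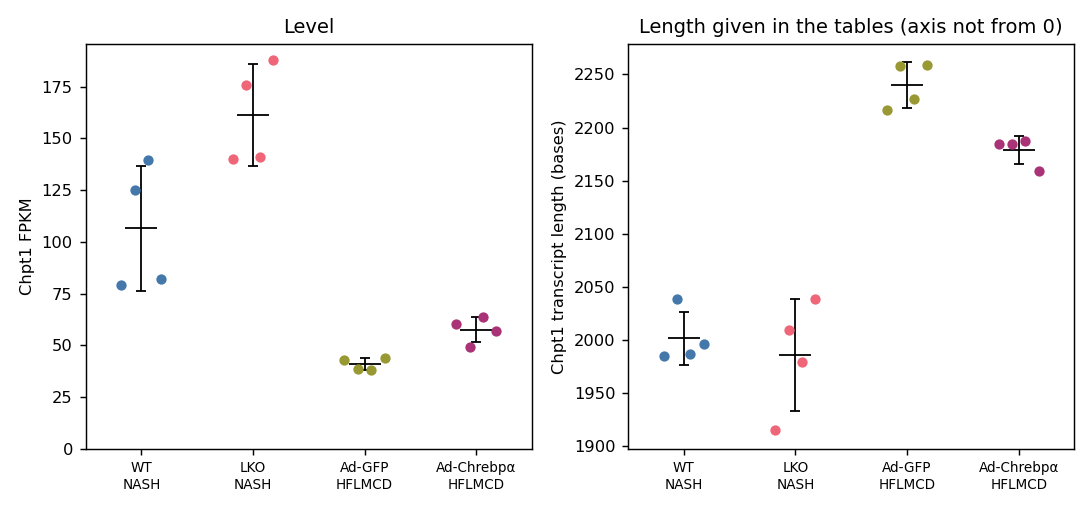
Chpt1 in each liver (dots) with the mean and SD of 4 livers in black: FPKM from 0 on the left, transcript length in bases on the right (axis not from 0). The HFLMCD groups combine lower levels with longer average transcripts, and Ad-Chrebpα lies between Ad-GFP and the NASH groups on both measures. FPKM is scaled to transcript length, so the panels are not independent.

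The rest of the choline and phospholipid network was read from 6 lists. Under Ad-Chrebpα, edgeR called 7 of 64 listed genes tested higher and 0 lower at an adjusted p below 0.05. Of all genes, 4.88% were higher and 3.16% lower. Before adjustment 6 listed genes were lower (p below 0.05), and DESeq2 called 16 higher and 2 lower. The counts in single lists were too small to set against the shares of all genes. Of 18 genes of phospholipid breakdown and choline recycling, 2 rose: Gpcpd1, which releases choline from glycerophosphocholine, from 20.3 ± 5.28 to 43.1 ± 9.73 FPKM (log2 fold change 1.16, SE 0.23, adjusted p = 0.0222), and Lcat, the plasma enzyme that esterifies cholesterol with a chain from phosphatidylcholine (0.56, SE 0.09, adjusted p = 0.0084). Among 7 uptake genes 2 rose, the transporters Flvcr2 (0.63, adjusted p = 0.0263) and Slc44a1 (0.34, adjusted p = 0.0440). So did 1 of 9 other synthesis genes, the phosphocholine phosphatase Phospho1 (0.71, adjusted p = 0.0251), 1 of 9 genes of choline oxidation and methyl group use, Ahcy (0.49, adjusted p = 0.0275), and 1 of 9 transfer and sphingomyelin genes, the sphingomyelin synthase Sgms2 (0.50, adjusted p = 0.0085). None of 12 other acyltransferases passed; the nearest was Agpat3 at 0.19 (adjusted p = 0.0761). Lcat and Sgms2 passed in all 17 alternative fits, Ahcy in 13, Flvcr2 in 12, Gpcpd1 and Phospho1 in 11 and Slc44a1 in 5. The setting of a fold of at least 1.5 was not counted among these 17.

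After the deletion, edgeR called 0 of 61 listed genes tested. Before adjustment (p below 0.05) 9 were higher and 2 were lower, beside 7.62% and 5.91% of all genes. DESeq2 called 2, Pltp and Phospho1, both higher. The gene with the lowest p in each list was Pltp, a phospholipid transfer protein (1.01, SE 0.26, unadjusted p = 0.0036), Pnpla6 (-0.36, SE 0.09, unadjusted p = 0.0038), Phospho1 (0.97, SE 0.27, unadjusted p = 0.0054), Lpcat2 (0.87, SE 0.25, unadjusted p = 0.0070), Slc44a2 (0.23, SE 0.13) or Bhmt (1.16, SE 0.75). The lowest adjusted p among these 6 was 0.310 with edgeR. Lpcat2, like Lpcat1 and the macrophage markers, had a positive value between the groups. Within Chrebpα-LKO, liver 21 had the highest macrophage marker sum, 147.3 FPKM, and the lowest Lpcat1, 0.70 FPKM. Liver 22 had the highest Lpcat1, 1.30 FPKM, at a sum of 115.6 FPKM. A link between them was not tested.

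Between the control livers, 7 of 9 genes of choline oxidation and methyl group use were lower in Ad-GFP and 0 higher on counts. Of all genes, 28.1% were lower and 30.8% higher, and these shares also stand beside the counts of the other lists. The list's median was -1.05, and that of the hepatocyte markers was -1.14. Its lowest values were Gnmt at -1.94 (SE 0.22), Ahcy at -1.86 (SE 0.19) and Mat1a at -1.21 (SE 0.14). On log2(FPKM + 0.1), Chdh, called lower on counts, had 0.24. Breakdown and recycling had 9 of 17 lower and 4 higher, led by Gpcpd1 at -3.31 (SE 0.22), from 129.4 ± 18.9 FPKM in Chrebpα-WT to 20.3 ± 5.28 in Ad-GFP, with Lcat at -1.42 and Gde1 at -1.19. These 6 named genes were lower on log2(FPKM + 0.1) as well, but Lypla1, Lypla2 and Pnpla7, called lower on counts, had 0.21, 0.43 and 0.07 there. Other acyltransferases split into 6 higher and 4 lower of 12, with Lpcat2 at 2.54, Agpat4 at 1.60 and Agpat1 at 0.64. Uptake had 4 higher and 1 lower of 7, with Flvcr1 at 1.31, Slc44a2 at 1.21 and Slc44a1 at -0.71, and other synthesis had 3 and 3 of 9, with Ctps, which makes the CTP that the Pcyt enzymes use, at 1.13, Etnk2 at -0.76, and Pcyt1b, a sister enzyme of Pcyt1a, at 2.80 from a trace level of 0.018 ± 0.0096 FPKM. Of 9 transfer genes 2 were higher and 4 lower; Smpd1 (-0.51), Stard7 (-0.55) and Atp8b1 (-0.46) had the lowest p, but these 3 had positive values on the FPKM scale, as did Slc44a1, Stard10, Ptdss1, Taz and Lclat1, and Etnk2 had -0.12 there. In all, 12 of the 28 lower calls in these lists had the opposite sign on log2(FPKM + 0.1), and 0 of the 19 higher calls did; genes whose signs turned and that were not among the lowest p were named after their values were seen.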

How the data were processed

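The authors' deposited tables give, per gene and liver, an expected count, an FPKM and a transcript length, named so in the file headers. HISAT2 is named in the submitters' processing notes; the counting program, strand setting and genome build are not named in these sources. The deposited expected counts held decimals for 25.3% to 27.2% of entries and were rounded. FPKM values are those the authors deposited and were not rescaled. Of 17436 entries, 26 carried transcript names and were joined to their genes, leaving 17410; 22 symbols turned into dates were restored. Symbols were matched to RefSeq for 17371 genes. Each comparison used its 8 libraries, edgeR 4.0.16 (filterByExpr, TMM, robust quasi-likelihood F test, Benjamini-Hochberg adjustment over all genes tested), with intervals of 95%. Alternatives were DESeq2 1.42.0, limma 3.58.1 (voom, and log2(FPKM + 1) or log2(FPKM + 0.1)), other filters and size factors, a fold of at least 1.5, 1 fit over 16 libraries, each liver left out, and, added after seeing the data, a length offset. The edgeR script was tested on simulated data. Members, lists and motifs were chosen with earlier results of these data known. Text names all 10 members, up to 3 called genes per list and comparison by lowest adjusted p, or, where none was called, the gene with the lowest p. Upstream sequences are RefSeq's, GRCm38.p6, found for 9 of the 10 members (all but Pcyt2). No level was called an outlier by Dixon's test in the 40 groups of 4 tested. Protein sequences were not used here.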

Additional observations from a re-analysis of the deposited data

How the results depend on the processing

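No paired analysis was possible because the livers are numbered 9 to 24 and no number is shared between groups. For the overexpression, genes called numbered 421 at a fold of at least 1.5, 1941 with DESeq2, 314 in the joint fit of 16 libraries, and 395 (without liver 16) to 1700 (without liver 14) with 1 liver left out; members called numbered 0 at a fold of at least 1.5, 0 in the joint fit, 1 on log2(FPKM + 1), 1 on log2(FPKM + 0.1), and 1 to 3 with 1 liver left out. For the deletion, DESeq2 called 158 genes, the joint fit 172, and fits without 1 liver 0 to 413. For the control livers, 4997 genes passed at a fold of at least 1.5. Of 509 alternative values of the members' log2 fold changes, 459 kept direction and side of the threshold, 4 gained and 29 lost the call, and 17 changed sign; of 542 for the other named genes, 8 changed sign. Members, deletion: Chka -0.031 without liver 21 (up to 0.26 without others), and Cept1 0.078 on log2(FPKM + 1) and 0.082 on log2(FPKM + 0.1). Overexpression: Pcyt2 -0.050 on both FPKM scales and -0.012 without liver 10 (up to 0.039), and Ptdss2 0.018 without liver 15 (down to -0.090). Control livers: Chka -0.019 in the joint fit and -0.073 without liver 19 (up to 0.14); and, on log2(FPKM + 1) and log2(FPKM + 0.1), Chkb 0.21 and 0.22, Pcyt1a 0.53 and 0.55, Pcyt2 0.42 and 0.42, Cept1 0.40 and 0.42. Other named genes, control livers, on the same 2 scales: Atp8b1 0.15 and 0.17, Slc44a1 5.17e-06 and 0.0039, Smpd1 0.11 and 0.12, and Stard7 0.076 and 0.078. The cause was not tested, and FPKM values were used without TMM factors. Lpcat1 and Lpcat2 in the deletion and Pcyt1b between controls had no value with the filter on a mean FPKM of at least 1. The deletion livers varied most (biological coefficient of variation 0.221, against 0.126 and 0.164), and Lpcat1, at under 1.5 FPKM there, had the least precise values.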
